A study of Mus musculus with 6 samples.

Results

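The liver makes most of the proteins that circulate as the complement and clotting cascades. The genes described here are 37 members of these cascades in the liver of mice on a high-fat diet, 17 of complement and 20 of clotting, fibrinogen and fibrinolysis, without the serpin inhibitors. They were taken as the rows whose gene symbol equals a listed name, which found all 37 among the 23282 rows of each count file, and all 37 were among the 12505 rows that passed the filter on low counts. In the study, male C57BL/6N mice (labelled C57BL/6 on the samples) aged 8 weeks began a high-fat diet that lasted 12 weeks. After 8 weeks of diet, the atractylodin group received atractylodin, a compound of Atractylodes plants, at 10 mg/kg body weight by mouth on 5 days per week for 4 weeks, while the vehicle group received vehicle. Each group has 3 liver libraries. Both groups ate the high-fat diet and no control-diet group is analysed here, so each comparison is of atractylodin with vehicle under that diet. Liver RNA was profiled by QuantSeq, which sequences the 3' end of each transcript. Whether each library is its own animal is not stated in the labels, and p-values reflect only the spread from library to library, which may be technical.

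Complement is a chain of serum proteases and binding proteins that tags and lyses microbes. It starts from antibody (the classical pathway), from sugar-binding lectins or by slow turnover of C3 itself, runs through convertases that split C3 and C5, and ends in a membrane pore. Clotting is a second protease chain that ends in thrombin, which turns fibrinogen into fibrin, and plasmin later dissolves the fibrin. Hepatocytes secrete nearly all of these proteins, several of them in larger amounts during the acute phase response, when interleukin-6 signals through STAT3.

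Library depth and whole-series facts bear on these genes as follows. Total counts were 9871762 to 12565393 in 5 libraries and 1831461 in vehicle library 1, where 3 counts equal 1.64 CPM (a count scaled to the size of its library). The lowest member was Masp1, with 28, 22 and 16 counts in atractylodin libraries 1, 2 and 3 and 6, 25 and 45 counts in vehicle libraries 1, 2 and 3; each other member had at least 47 counts in every library. Of 12505 tested rows, 416 passed lower and 490 higher with atractylodin at an adjusted p of 0.05 (edgeR's quasi-likelihood test, Benjamini-Hochberg over all rows). Under scaling by total counts the split was 707 lower and 312 higher. None of the 7 hepatocyte markers, Alb and Ttr among them, passed, and their summed level was 73330 to 81919 CPM with atractylodin and 78079 to 85657 CPM with vehicle. In bulk liver, fewer cells of a type and less RNA per cell cannot be told apart. Atractylodin library 3 was the highest of the 6 libraries for all 3 fibrinogen chains and for 8 of 15 acute phase genes. The fibrinogen fold changes are therefore given with and without it, and the acute phase genes by library.

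Of the 37 factors, 3 fell, none rose and 34 did not pass. The 3 that fell were Cpb2, which encodes the carboxypeptidase TAFI that slows clot lysis, C8g, which encodes the gamma chain of complement C8, and the clotting factor gene F11. They are 8.11% of the members, where 3.33% of all tested rows passed lower, 3.92% passed higher and 7.25% passed in either direction. The count of 3 became 1, Cpb2, without atractylodin library 1, without vehicle library 1 or without vehicle library 3, it became 6 under scaling by total counts, and none passed after subsampling to the size of vehicle library 1. The median log2 fold change of the 37 was -0.08, beside -0.0015 over all tested rows, and 26 of the 37 estimates were below 0, or 70.3% against 50.2% of all rows. Both complement and clotting members leaned the same way, with 12 of 17 and 14 of 20 estimates below 0. The lean was not particular to the 37. Among 78 other tested genes of these pathways, the acute phase and hepatocyte regulation, 70.5% of estimates were below 0. Under scaling by total counts the median was -0.17 for the 37 and -0.09 over all tested rows. Atractylodin and vehicle libraries were fully apart for 10 of the 37 (27.0%), beside 26.2% of all rows. Of these, 9 (24.3%) were lower with atractylodin, beside 12.6% of all rows. None of the 37 estimates was beyond 1.5-fold, beside 15.3% of all rows, and for 29 of the 37 the whole 95% interval of the fold change lay within 1.5-fold either way, beside 40.2% of all rows. Of the 8 members whose interval reached further, 3 were the fibrinogen chains. The median SE of the log2 fold change was 0.10 for the 37 and 0.20 over all tested rows. The members were not set beside rows of like level or error, so these shares do not show them to be unusually stable.

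**Figure D1:**
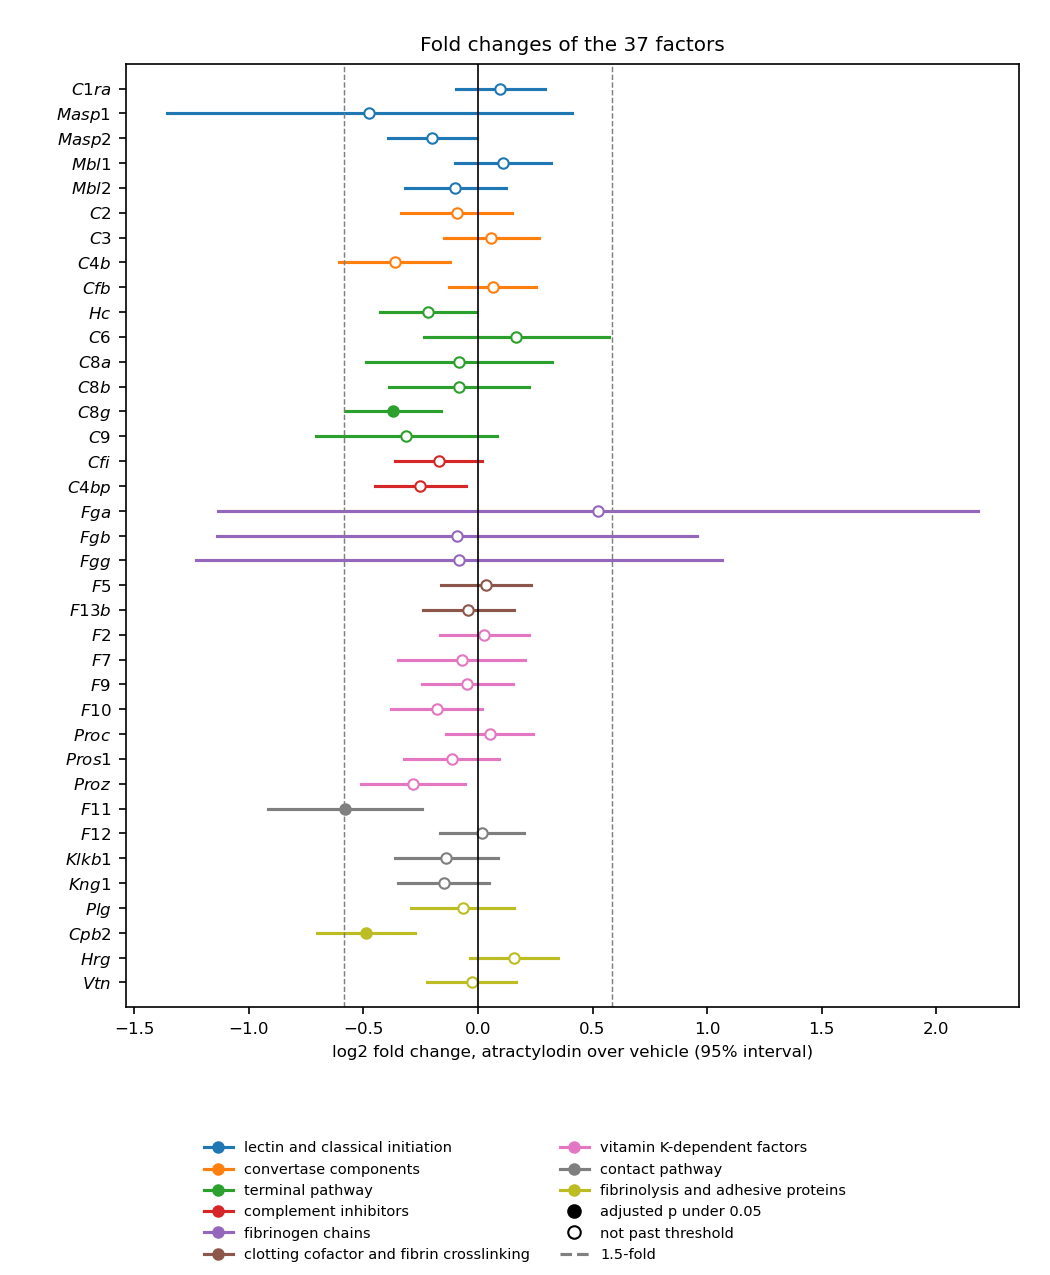
Log2 fold change of each of the 37 factors (x axis, atractylodin over vehicle) with its 95% interval as a bar, by role in colour; filled points passed an adjusted p of 0.05 and dashed lines mark 1.5-fold. The 3 filled points, C8g, F11 and Cpb2, lie left of 0, and the widest bars are those of Fga, Fgb, Fgg and Masp1.

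The fibrinogen genes are shown first by sequence, because all 3 of their mRNAs were highest in atractylodin library 3. Fgb and Fgg varied together from library to library, and Fga followed them less closely. Fibrinogen is a dimer of 3 different chains, encoded by Fga, Fgb and Fgg, which lie within 42140 bases on mouse chromosome 3. The lines below give the 250 bases before the RefSeq start of each gene on GRCm38.p6, 5' to 3' on the gene's own strand: chr3:83025903-83026152 on the plus strand for Fga, chr3:83049864-83050113 on the minus strand for Fgb and chr3:83007474-83007723 on the plus strand for Fgg. GENCODE M21 also places an Fga start inside the Fga window.
Fga: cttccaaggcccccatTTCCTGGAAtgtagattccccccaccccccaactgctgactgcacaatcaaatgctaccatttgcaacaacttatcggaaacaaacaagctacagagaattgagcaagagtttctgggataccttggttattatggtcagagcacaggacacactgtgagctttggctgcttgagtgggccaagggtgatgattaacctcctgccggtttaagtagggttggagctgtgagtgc
Fgb: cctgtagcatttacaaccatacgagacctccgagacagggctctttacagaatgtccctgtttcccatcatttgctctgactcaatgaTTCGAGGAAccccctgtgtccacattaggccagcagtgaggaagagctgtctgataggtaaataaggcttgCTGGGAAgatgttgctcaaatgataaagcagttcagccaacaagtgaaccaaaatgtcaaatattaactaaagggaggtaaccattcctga
Fgg: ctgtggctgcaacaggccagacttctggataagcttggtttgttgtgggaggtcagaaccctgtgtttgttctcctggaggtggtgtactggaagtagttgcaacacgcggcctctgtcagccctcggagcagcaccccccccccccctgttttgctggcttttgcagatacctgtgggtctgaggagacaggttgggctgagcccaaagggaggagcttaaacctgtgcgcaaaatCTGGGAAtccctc
Capitals mark matches, on either strand, to 2 motifs known from acute phase promoters: CTGGGAA, the core of an interleukin-6 response element, and TTCNNNGAA, the palindrome that STAT proteins bind. No 2 of the matches overlapped. Fga held TTCCTGGAA (bases -234 to -226 from the start), Fgb held both motifs (TTCGAGGAA at -162 to -154 and CTGGGAA at -91 to -85), and Fgg held CTGGGAA (-13 to -7). Among all 32851 RefSeq windows of this length, 9.10% held CTGGGAA and 7.02% TTCNNNGAA. Of the 29 members with a window, 5 held CTGGGAA and 6 held TTCNNNGAA. A match is only a run of letters, and the windows were searched after the expression values were known.

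Fibrinogen mRNA did not pass in either direction, and its estimates moved with which library was left out. Fgb, the beta chain, stood at 6179, 5136 and 11076 CPM in atractylodin libraries 1, 2 and 3, against 9671, 5793 and 8386 CPM in vehicle libraries 1, 2 and 3. For Fgg, the gamma chain, the levels were 1616, 1336 and 3148 CPM with atractylodin and 2608, 1593 and 2261 CPM with vehicle. For Fga, the alpha chain, they were 150.3, 178 and 511 CPM with atractylodin and 220.2, 138 and 229 CPM with vehicle. In all 3 genes atractylodin library 3 was the highest of the 6, while for Fgb and Fgg atractylodin library 2 was the lowest of the 6 and atractylodin library 1 was just above the lowest vehicle library. The groups therefore overlapped, with log2 fold changes of 0.52 ± 0.61 for Fga, -0.09 ± 0.39 for Fgb and -0.08 ± 0.42 for Fgg (SE, adjusted p = 0.7, 0.923 and 0.936). Their 95% intervals, -1.13 to 2.18, -1.14 to 0.96 and -1.23 to 1.07, leave room for a change of over 2-fold in either direction for Fga and Fgg, so these libraries do not set the size of a fibrinogen change. Without atractylodin library 3 the log2 fold changes were -0.24, -0.49 and -0.54 (adjusted p = 0.678, 0.247 and 0.188), so the estimate for Fga turned sign. Those for Fgb and Fgg turned sign in other fits. They were 0.03 and 0.06 without atractylodin library 1, 0.12 and 0.15 without atractylodin library 2, and 0.08 each without vehicle library 1. The beta and gamma chain genes kept a nearly fixed ratio of counts within a library, 3.82, 3.84 and 3.52 in atractylodin libraries 1, 2 and 3 and 3.71, 3.64 and 3.71 in vehicle libraries 1, 2 and 3, while the level of Fgb itself varied 2.16-fold between libraries. The ratio of gamma to alpha chain counts varied more, at 10.76, 7.49 and 6.16 with atractylodin and 11.85, 11.52 and 9.86 with vehicle.

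Genes of the acute phase response stood beside fibrinogen in atractylodin library 3. Of 15 acute phase genes, 13 were higher in that library than in both other atractylodin libraries, as were 4136 of all 12505 tested rows. Of the 15, 8 (53.3%) were highest of all 6 libraries there, beside 15.6% of all tested rows. The other 7 were highest in a vehicle library: Saa3, Hpx, Orm1, Orm2 and Lcn2 in vehicle library 2, and Apcs and Itih3 in vehicle library 1. Between the groups, 12 of the 15 estimates were below 0. Saa1, encoding serum amyloid A, stood at 165, 39.4 and 830.4 CPM in atractylodin libraries 1, 2 and 3 and 441, 480.3 and 489 CPM in vehicle libraries 1, 2 and 3. Saa2 stood at 37.7, 13.3 and 334 CPM with atractylodin and 101, 190.1 and 117 CPM with vehicle, and haptoglobin, Hp, at 2472, 2265 and 3857 CPM with atractylodin and 3081, 2543 and 3348 CPM with vehicle. For Stat3 the levels were 277, 246 and 521 CPM with atractylodin and 296, 201 and 349 CPM with vehicle, while Socs3, a feedback inhibitor that STAT3 induces, stood at 9.67, 11.8 and 39.5 CPM with atractylodin and 26.4, 10.5 and 33.1 CPM with vehicle. Cebpb, a transcription factor of the acute phase, stood at 63.0, 69.5 and 184 CPM with atractylodin and 40.4, 36.2 and 53.6 CPM with vehicle. Of the 3 tested neutrophil genes, S100a8 and S100a9 were also highest in atractylodin library 3 and Retnlg was highest in vehicle library 1. For S100a8 the levels were 1.69, 0 and 10.9 CPM with atractylodin and 2.69, 1.97 and 2.75 CPM with vehicle, and for S100a9 1.89, 0.731 and 9.35 CPM with atractylodin and 1.61, 1.97 and 2.26 CPM with vehicle. Retnlg stood at 0.399, 0.418 and 2.25 CPM with atractylodin and 3.77, 2.49 and 0.566 CPM with vehicle. The summed level of the 6-gene neutrophil list was 1.15 to 22.97 CPM with atractylodin and 5.82 to 8.61 CPM with vehicle, with 5 of its genes in the files and Mpo at 0 in every library. None of the 15 acute phase genes passed in edgeR, while 2 had an unadjusted p under 0.05. The part of these genes or cells in the fibrinogen values was not tested. The other 34 members had a median level in atractylodin library 3 of 1.05 times the mean of the other 2 atractylodin libraries, with a range of 0.525 to 1.48, and 3 of the 34 (C6, F9 and Hrg) were highest of all 6 libraries there.

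**Figure D2:**
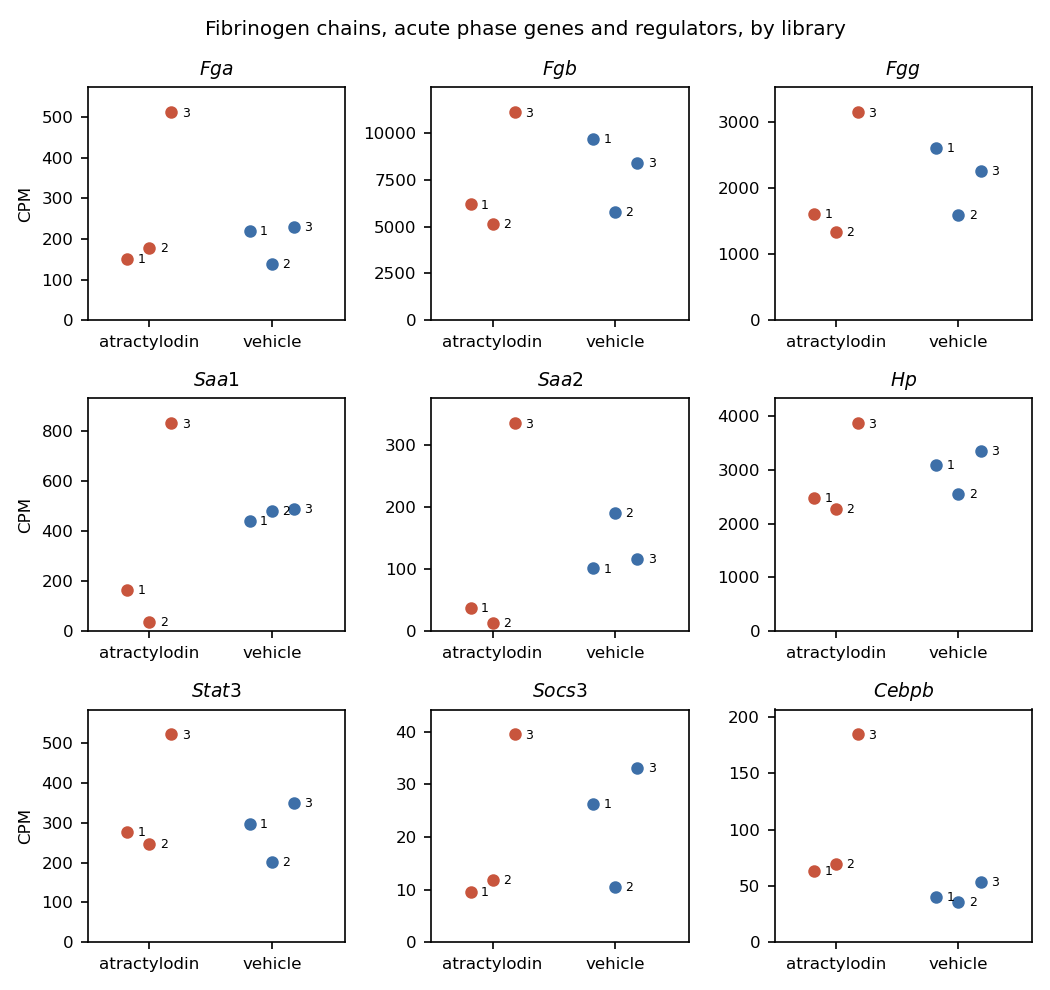
CPM of the 3 fibrinogen chain genes, of 3 acute phase genes and of 3 regulators in each library (points, numbered by replicate; atractylodin red, vehicle blue). In all 9 panels atractylodin library 3 is the highest point, for example 511 CPM for Fga and 830.4 CPM for Saa1; the 3 acute phase genes are from the 8 of 15 that were highest in that library.

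Complement is triggered by recognition proteins and their proteases, and none of the 5 members of this step passed. Masp2, the lectin pathway protease that cleaves C4 and C2, was at 131, 145 and 144 CPM in atractylodin libraries 1, 2 and 3 against 157, 169.8 and 155 CPM in vehicle libraries 1, 2 and 3. All 3 atractylodin libraries lay below all 3 vehicle libraries (log2 fold change -0.20 ± 0.09, SE, adjusted p = 0.211). The 3' end of Masp2 overlaps Tardbp on the opposite strand, and the strand setting of the counting is not given in the sources used here. Masp1, a lectin pathway protease that activates MASP-2, was low, at 2.79, 2.30 and 1.34 CPM with atractylodin and 3.23, 2.15 and 3.64 CPM with vehicle (log2 -0.47 ± 0.42, adjusted p = 0.568), and the groups overlapped. The mannose-binding lectin genes Mbl1 and Mbl2 gave log2 fold changes of 0.11 ± 0.10 and -0.10 ± 0.10, and C1ra, the classical pathway protease C1r, gave 0.10 ± 0.09. Reads of C1ra may have been shared with its close copy C1rb, which stood at 147 ± 9.45 CPM with atractylodin and 128 ± 10.7 CPM with vehicle (SD, n = 3 each).

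The convertase step held the member closest to the threshold outside those called. C4b, whose product C4 joins C2 in the classical and lectin C3 convertase, was at 648, 500.4 and 658 CPM in atractylodin libraries 1, 2 and 3 against 843, 685 and 797 CPM in vehicle libraries 1, 2 and 3. Every atractylodin library was below every vehicle library (log2 fold change -0.36 ± 0.11, SE, adjusted p = 0.0662). It passed with the replicate block (adjusted p = 0.035), without vehicle library 2 (0.0384), without a filter (0.00855) and under scaling by total counts (0.0216), and its adjusted p over the 6 leave-one-out fits was 0.0384 to 0.259. C4a, a near-identical neighbour whose reads may have been mixed with those of C4b, stood at 128, 90.4 and 134 CPM with atractylodin and 159, 129 and 151 CPM with vehicle (adjusted p = 0.231). C2 itself gave 47.7, 51.2 and 42.1 CPM with atractylodin and 50.1, 52.9 and 47.2 CPM with vehicle, groups that overlap (log2 -0.09 ± 0.12, adjusted p = 0.7). The 3' end of C2 overlaps the gene Gm20547 on its own strand, so reads of the 2 may have been mixed. C3, the central component, stood at 3119 ± 236 CPM with atractylodin and 2995 ± 198 CPM with vehicle (SD, n = 3 each), and its 95% interval on the log2 scale was -0.15 to 0.27. Cfb, the protease of the alternative pathway convertase, stood at 823 ± 39.6 CPM with atractylodin and 787 ± 20.7 CPM with vehicle, with an interval of -0.13 to 0.26. C3 and Cfb were thus held within 1.5-fold of vehicle by their intervals, and both estimates turned sign under scaling by total counts (log2 -0.02 each).

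Among the 6 genes of the terminal pathway, which builds the membrane pore, C8g fell. Its level was 251, 224 and 278 CPM in atractylodin libraries 1, 2 and 3 against 321, 306 and 347 CPM in vehicle libraries 1, 2 and 3. The highest atractylodin library was below the lowest vehicle library, and the level was 1.29-fold lower with atractylodin (log2 -0.37 ± 0.10, SE, 95% interval -0.58 to -0.16, adjusted p = 0.0291). The call was lost without atractylodin library 1 or 2 (adjusted p = 0.064 and 0.126) and without vehicle library 1 or 3 (0.0939 and 0.166). C8g (chromosome 2, 25498651 to 25501719, minus strand, GRCm38) overlaps Fbxw5 on the opposite strand, though not at its own 3' end. C8 is assembled from alpha, beta and gamma chains, the last a small lipocalin that is not required for the pore. The alpha and beta chain genes, given here after their values were seen, did not pass. C8a was at 999.8, 758 and 948 CPM with atractylodin and 1231, 799.8 and 842 CPM with vehicle, and C8b at 120.2, 132 and 149 CPM with atractylodin and 159, 109.7 and 159 CPM with vehicle. Vehicle library 1 was the highest for C8a, vehicle library 2 the lowest for C8b, and the groups overlapped in both (log2 -0.08 ± 0.18 and -0.08 ± 0.14, adjusted p = 0.841 and 0.793). Whether the 3 chains differ in their change was not tested. Hc, which encodes C5, was at 439, 376 and 426 CPM with atractylodin and 536, 446 and 462 CPM with vehicle, with no overlap between groups (log2 -0.22 ± 0.10, adjusted p = 0.218). The pore proteins C9 and C6 gave log2 fold changes of -0.31 ± 0.18 and 0.17 ± 0.18 (adjusted p = 0.354 and 0.647), and for C6 atractylodin library 3 was again the highest, at 100.2 CPM.

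Both members grouped here by role as complement inhibitors, C4bp and Cfi, had separate groups, and neither passed. C4bp, the cofactor for C4b breakdown, stood at 336, 303 and 357 CPM in atractylodin libraries 1, 2 and 3 against 420.4, 387 and 379 CPM in vehicle libraries 1, 2 and 3 (log2 -0.25 ± 0.09, adjusted p = 0.124), and it passed under scaling by total counts (adjusted p = 0.0368). Cfi, the protease that cuts C3b and C4b, stood at 317, 298 and 336 CPM with atractylodin and 369.8, 349 and 354 CPM with vehicle (log2 -0.17 ± 0.09, adjusted p = 0.286). In both genes all 3 atractylodin libraries were the lower ones, as for 12.6% of all tested rows.

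**Figure D3:**
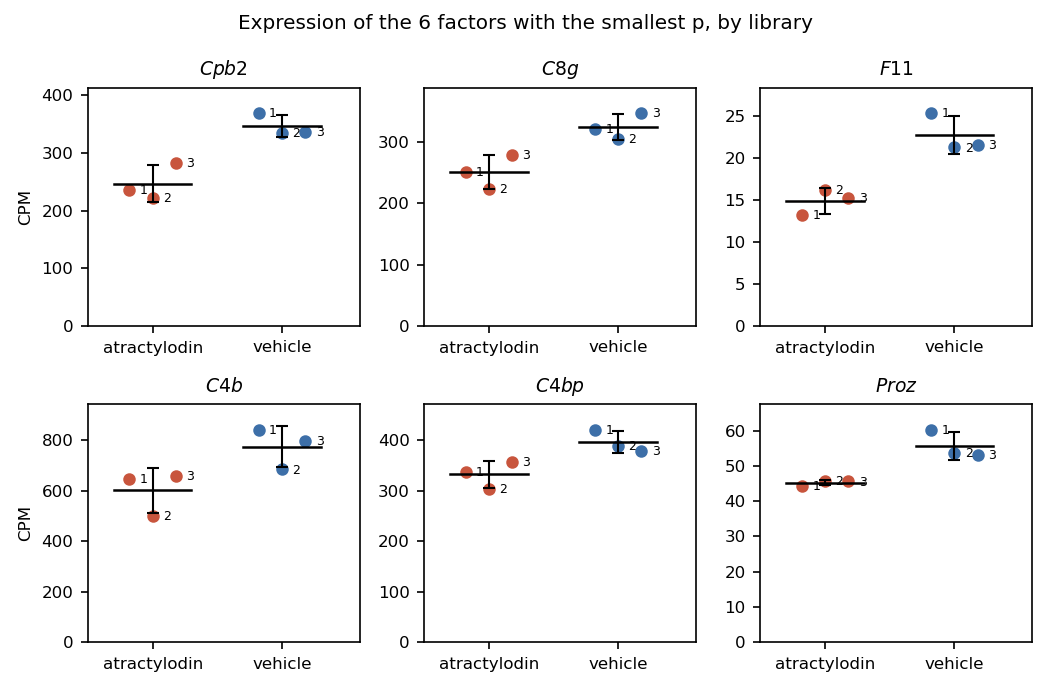
CPM of the 6 members with the smallest p in each library (points, numbered by replicate; atractylodin red, vehicle blue), with the mean (line) and SD (bar) of 3 libraries. Cpb2, C8g and F11 in the top row passed, while C4b, C4bp and Proz in the bottom row did not; in all 6 panels the atractylodin points lie below the vehicle points.

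None of the 7 vitamin K-dependent factors passed, and all 7 intervals lay within 1.5-fold. These proteins bind membranes only after a carboxylation that needs vitamin K. F2, which encodes prothrombin, stood at 1947 ± 63.0 CPM with atractylodin and 1908 ± 95.1 CPM with vehicle (SD, n = 3 each; log2 interval -0.17 to 0.22). The protease genes F7, F9 and F10 gave log2 fold changes of -0.07 ± 0.13, -0.05 ± 0.09 and -0.18 ± 0.10. For F10, which activates prothrombin, the levels were 280.2, 289 and 302 CPM in atractylodin libraries 1, 2 and 3 against 339, 295 and 355 CPM in vehicle libraries 1, 2 and 3, so the groups overlapped (adjusted p = 0.286). The anticoagulant genes Proc (protein C) and Pros1 (protein S) gave 0.05 ± 0.09 and -0.11 ± 0.10. Proz, whose product is the cofactor of a serpin that inhibits activated factor X, stood at 44.3, 45.6 and 45.6 CPM with atractylodin and 60.3, 53.6 and 53.1 CPM with vehicle. Here the groups were apart (log2 -0.28 ± 0.11, adjusted p = 0.127), and the gene passed under scaling by total counts (adjusted p = 0.0422). F7, F10 and Proz are neighbours on chromosome 8.

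F5, the cofactor that speeds prothrombin cleavage, stood at 903 ± 61.9 CPM with atractylodin and 882 ± 17.4 CPM with vehicle (SD, n = 3 each; log2 0.04 ± 0.09). F13b, the carrier subunit of the enzyme that crosslinks fibrin, was at 198, 231 and 209 CPM with atractylodin and 228, 202 and 228 CPM with vehicle (log2 -0.04 ± 0.10, adjusted p = 0.848), with overlapping groups.

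In the contact pathway, where clotting starts on charged surfaces, F11 fell and the other 3 members did not pass. F11, the protease that activates factor IX, was at 13.2, 16.2 and 15.2 CPM in atractylodin libraries 1, 2 and 3 against 25.3, 21.2 and 21.5 CPM in vehicle libraries 1, 2 and 3. The groups were apart, and the level was 1.49-fold lower with atractylodin (log2 -0.58 ± 0.16, SE, 95% interval -0.92 to -0.24, adjusted p = 0.0336). Behind these levels were 132, 155 and 182 counts with atractylodin and 47, 247 and 266 counts with vehicle. The call was lost in 5 of the 6 leave-one-out fits: without atractylodin library 1 or 3 (adjusted p = 0.115 and 0.0669) and without vehicle library 1, 2 or 3 (0.108, 0.0688 and 0.0994). It was also lost in DESeq2 (adjusted p = 0.0506) and with the replicate block (adjusted p = 0.0573). F11 (chromosome 8, 45241174 to 45262031, minus strand) lies beside Klkb1, which encodes prekallikrein and arose from the same ancestral gene. Klkb1 stood at 116 ± 16.3 CPM with atractylodin and 127 ± 8.09 CPM with vehicle (SD, n = 3 each; log2 -0.14 ± 0.11, adjusted p = 0.503). Kng1, the source of high molecular weight kininogen and bradykinin, was at 1139, 1084 and 1179 CPM with atractylodin and 1291, 1172 and 1312 CPM with vehicle (log2 -0.15 ± 0.09, adjusted p = 0.383). Its groups overlapped at atractylodin library 3 and vehicle library 2, and its close copy Kng2 gave a log2 fold change of 0.10 ± 0.09. F12, the first protease of the pathway, was nearly level, at 445 ± 8.29 CPM with atractylodin and 439 ± 14.0 CPM with vehicle (SD, n = 3 each; log2 interval -0.17 to 0.20).

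Among genes that act on the finished clot, Cpb2 fell, with the smallest p of the 37. Its product TAFI, activated by thrombin, trims the lysines from fibrin to which plasminogen binds. Cpb2 (chromosome 14, 75242287 to 75283555, plus strand) was at 236, 222 and 283 CPM in atractylodin libraries 1, 2 and 3 against 369, 335 and 337 CPM in vehicle libraries 1, 2 and 3. Even atractylodin library 3, the highest of its group, was below every vehicle library. The level was 1.40-fold lower with atractylodin (log2 -0.49 ± 0.10, SE, 95% interval -0.70 to -0.28, adjusted p = 0.00612). This call held in all 6 leave-one-out fits (adjusted p = 0.00176 to 0.0485, the last without vehicle library 1), and was lost after subsampling every library to the size of vehicle library 1 (adjusted p = 0.304). Cpb2 overlaps the predicted genes Gm18147 and Gm44482 on its own strand. Plg, which encodes plasminogen, stood at 1679 ± 128 CPM with atractylodin and 1759 ± 230.5 CPM with vehicle (SD, n = 3 each; log2 -0.07 ± 0.11), and Vtn, the adhesive protein vitronectin, at 947 ± 42.7 CPM with atractylodin and 966 ± 50.7 CPM with vehicle (log2 -0.03 ± 0.09). The 3' end of Plg overlaps Slc22a3 on the opposite strand. Hrg, a histidine-rich glycoprotein that binds plasminogen and heparin, was at 607, 667 and 677 CPM with atractylodin and 592, 582 and 577 CPM with vehicle. It was the single member whose groups were apart with atractylodin higher, and it did not pass (log2 0.16 ± 0.09, adjusted p = 0.344).

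**Figure D4:**
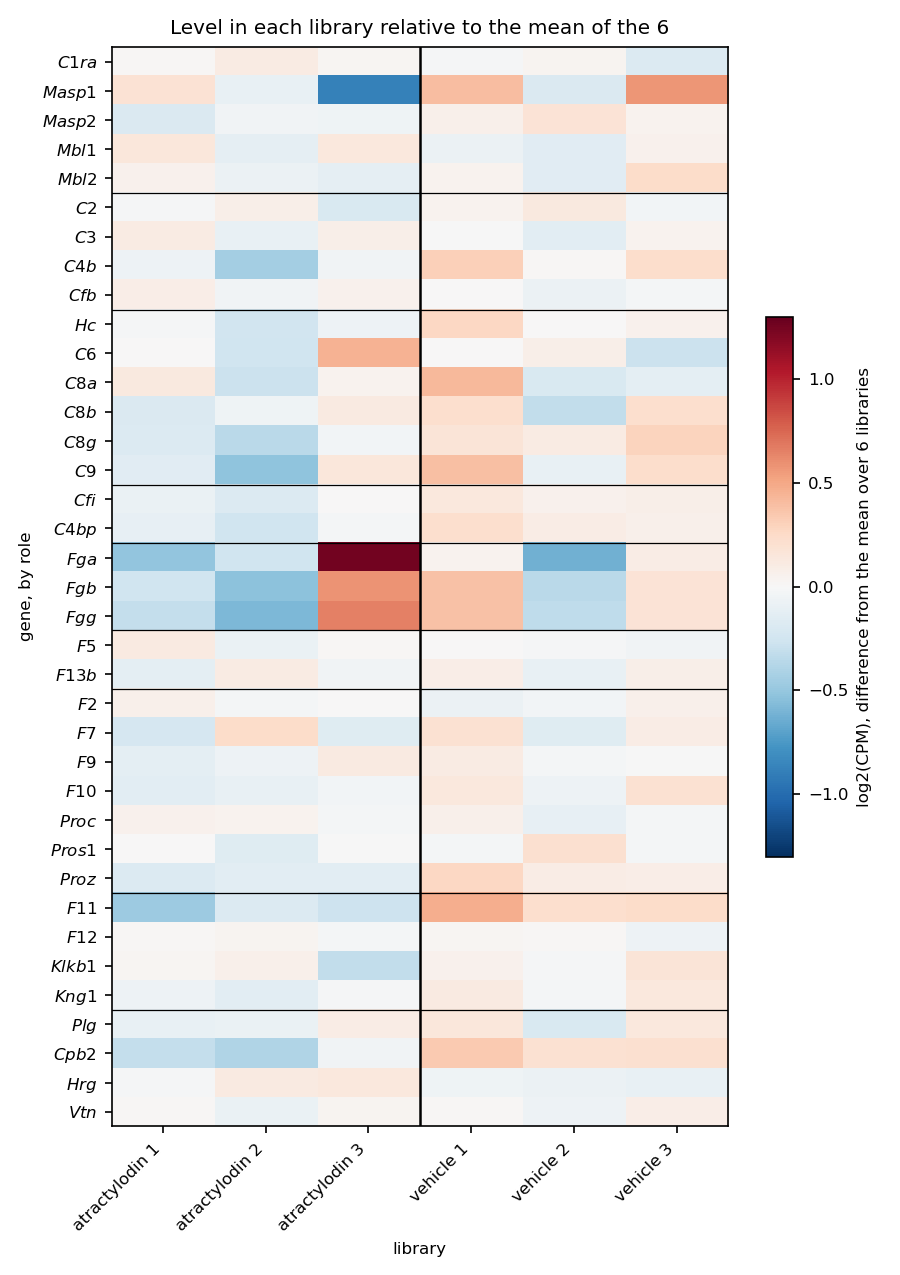
Level of each factor (rows, grouped by role) in each library (columns) as log2 CPM minus the mean over the 6 libraries, with red above and blue below that mean. The darkest cells are those of Fga in atractylodin library 3, 1.26 above its mean, and Masp1 in atractylodin library 3, 0.874 below.

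Summed over the 37 genes, the factors took 2.26% to 3.14% of all counts with atractylodin and 2.57% to 3.19% with vehicle, ranges that overlap. Without the 3 fibrinogen chains the share was 1.77%, 1.61% and 1.73% in atractylodin libraries 1, 2 and 3 and 1.92%, 1.79% and 1.90% in vehicle libraries 1, 2 and 3, with every atractylodin library below every vehicle library. These shares are of total counts, the scaling under which 32 of the 37 estimates were below 0. On the TMM-scaled CPM used elsewhere that separation was absent: the 34 genes summed to 17950, 16616 and 18179 CPM with atractylodin and 18963, 17042 and 18641 CPM with vehicle, so the groups overlapped. Vehicle library 1 was the highest of the 6 libraries for 12 members, and atractylodin library 2 the lowest for 14. Without vehicle library 1 the count of calls was 1 (Cpb2) and 23 of 37 estimates were below 0, with a median of -0.01.

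The rest of the pathway was followed in lists of 57 complement, clotting, vitamin K and serpin genes, of which 50 were tested, 4 fell and 1 rose (10.0%, beside 7.25% of all rows). Lists of 28 acute phase genes and hepatocyte regulators, all tested, held 4 further rises (14.3%), each in a regulator. No other complement component passed among 14 tested: C1s1, the partner of C1r, had the smallest p, at 281, 299 and 263 CPM with atractylodin and 322, 369 and 326 CPM with vehicle (adjusted p = 0.0917). The macrophage genes C1qa, C1qb and C1qc, which encode the recognition protein of the classical pathway, gave log2 fold changes of -0.28 ± 0.13, -0.06 ± 0.16 and -0.31 ± 0.24. Of 12 complement regulators and receptors, Cd59a fell, with 167, 177 and 169 CPM with atractylodin and 210.5, 207 and 212 CPM with vehicle (log2 -0.30 ± 0.09, adjusted p = 0.0455). CD59 blocks the addition of C9 to the pore on the body's own cells, and this call was lost in all 6 leave-one-out fits (adjusted p = 0.0707 to 0.163) and in DESeq2 (0.0615).

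Among 15 other clotting and fibrinolysis genes, Hgfac and F8 fell and Plaur rose. Hgfac, a protease that activates hepatocyte growth factor and resembles factor XII, was at 121, 118 and 128 CPM in atractylodin libraries 1, 2 and 3 against 209, 154 and 201 CPM in vehicle libraries 1, 2 and 3 (log2 -0.61 ± 0.11, adjusted p = 0.00235). It held in all 6 leave-one-out fits. F8, the cofactor of factor IX that liver endothelium makes, was at 27.3, 30.8 and 26.4 CPM with atractylodin and 42.5, 40.4 and 35.8 CPM with vehicle (log2 -0.47 ± 0.13, adjusted p = 0.0314), which held without atractylodin library 2 (0.0327) and was lost in the 5 other leave-one-out fits (0.0551 to 0.115) and in DESeq2 (0.0513). Beside it, 7 of 8 endothelial markers had estimates below 0. Stab2 (log2 -0.60 ± 0.16) and Ptprb (-0.32 ± 0.09) fell and Lyve1 (0.71 ± 0.19) rose (adjusted p = 0.0283, 0.0437 and 0.0414), calls lost in 5, 6 and 5 of the 6 leave-one-out fits. The list's summed level was 339 to 373 CPM with atractylodin and 382 to 396 CPM with vehicle, with no marker at 0. Their part in the F8 value was not tested. Plaur, the urokinase receptor, was near the detection limit, with 17, 22 and 16 counts with atractylodin and 0, 3 and 6 counts with vehicle (adjusted p = 0.0364), and its call was lost in all 6 leave-one-out fits (adjusted p = 0.0507 to 0.149).

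The vitamin K cycle genes did not pass (3 tested; Vkorc1l1 had the smallest p, log2 -0.32 ± 0.15, adjusted p = 0.225). Of 6 tested serpins of these cascades, Serpinf2, the inhibitor of plasmin, fell to 316, 353 and 348 CPM with atractylodin, against 563, 381 and 490.5 CPM with vehicle (log2 -0.49 ± 0.12, adjusted p = 0.023), which held without vehicle library 2 (0.00119) and was lost in the 5 other leave-one-out fits (0.0507 to 0.123). Antithrombin, Serpinc1, gave -0.06 ± 0.09. In the acute phase list, Hpx, encoding the heme carrier hemopexin, had the smallest p, at 2687, 1695 and 2675 CPM with atractylodin and 3262, 3527 and 3079 CPM with vehicle (adjusted p = 0.115).

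Of 13 tested genes for transcription factors and receptors that act on hepatocyte genes, 4 (30.8%) rose and none fell. Of all tested rows, 3.92% passed higher and 3.33% lower. The list was chosen with earlier results of these data known. Hnf4a, a nuclear receptor that drives many clotting factor genes, was at 462, 439 and 533 CPM in atractylodin libraries 1, 2 and 3 against 321, 270.2 and 291 CPM in vehicle libraries 1, 2 and 3 (log2 0.71 ± 0.10, adjusted p = 0.000405). The xenobiotic receptor genes Nr1i2 (PXR) and Nr1i3 (CAR) rose. For Nr1i2 the levels were 121, 111 and 120.1 CPM with atractylodin and 78.1, 78.4 and 71.5 CPM with vehicle (1.55-fold, adjusted p = 0.000568), and for Nr1i3 165, 217 and 195 CPM with atractylodin and 138, 118 and 139 CPM with vehicle (1.46-fold, adjusted p = 0.00449), with no overlap in either gene. Il6ra, which encodes the interleukin-6 receptor, was at 42.4, 50.7 and 49.4 CPM with atractylodin and 37.1, 26.5 and 32.7 CPM with vehicle (log2 0.61 ± 0.14, adjusted p = 0.00958), and this call was lost without vehicle library 2 (adjusted p = 0.0744). The signalling partner Il6st gave a log2 fold change of -0.38 ± 0.14 (adjusted p = 0.107).

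Among markers of other blood and liver cells, Sox9 and Alas2 fell, and their part in the members' values was not tested. No macrophage marker of 8 passed (Csf1r had the smallest p, log2 -0.35 ± 0.13, adjusted p = 0.112), and the list summed to 190.4 to 312 CPM with atractylodin and 245 to 351 CPM with vehicle. Platelet markers, the other blood source of clotting proteins, summed to 6.85 to 12.26 CPM with atractylodin and 7.54 to 9.30 CPM with vehicle, with Gp9 at 0 in 5 libraries and Treml1 of the smallest p (adjusted p = 0.601). Of 3 tested neutrophil genes none passed (Retnlg, adjusted p = 0.604). Sox9, among 2 tested cholangiocyte markers, was at 12.1, 15.6 and 15.4 CPM with atractylodin and 36.1, 22.1 and 26.8 CPM with vehicle (adjusted p = 0.00434). The other 4 cholangiocyte markers summed to 3.09, 1.98 and 4.26 CPM with atractylodin and 1.61, 3.26 and 3.48 CPM with vehicle, with overlap. Of 4 red blood cell genes, Alas2 fell to 54.1, 52.0 and 55.5 CPM with atractylodin, against 96.9, 88.3 and 76.6 CPM with vehicle (adjusted p = 0.000845), while Hba-a1 gave a log2 fold change of -0.01 ± 0.30. In the hepatocyte list Ttr had the smallest p (log2 -0.23 ± 0.09, adjusted p = 0.163).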

How the data were processed

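Liver RNA extracted with Trizol went into Lexogen QuantSeq 3' libraries, per the labels' protocols. Each library has a deposited file of whole-number counts by gene symbol, not normalized. The submitters' processing notes name Bowtie2, bedtools and mm10; the annotation, strand setting, handling of reads that match several genes and any collapsing by molecular identifiers are not given in the sources used here, so the floor of 3 counts covers counting error only. Of 23282 rows, 12505 passed filterByExpr and were tested with edgeR 4.0.16 (TMM scaling, robust quasi-likelihood F-test, no covariates) under R 4.3.3, with Benjamini-Hochberg adjustment at 0.05. The SE of a log2 fold change is its size over the root of its F value, and 95% intervals use the fit's degrees of freedom. CPM values use TMM-scaled sizes; since 3' counting does not scale with length, they are not divided by it. The test was tried on simulated data first. Alternatives were RLE and total-count scaling, DESeq2 1.42.0, limma-voom (limma 3.58.1), no filter, the replicate number as a block, thinning to the shallowest library and leaving out each library. No 2 libraries agreed within sampling noise (chi-square per degree of freedom at least 2.75).

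The members, role groups and other lists were chosen with earlier results of these data known. Values per library are given for members that passed, for the 2 members with the smallest p in each role group (1 in groups of 2), and for Fgg, C8a, C8b, Cfi, Stat3, Socs3, Cebpb and the acute phase and neutrophil genes beside fibrinogen, which were chosen after their values were seen. In the other lists every gene that passed is named, or the smallest p where none did. All 37 symbols matched 1 gene each in GENCODE M21 (GRCm38, equal to mm10), which gave positions; 6 members overlapped a same-strand gene and 9 an opposite-strand gene. Promoter sequences are from RefSeq on GRCm38.p6, in which 29 of the 37 were found.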

Additional observations from a re-analysis of the deposited data

How the results depend on the processing

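The count of 3 members called lower was 6 under scaling by total counts and 0 with all libraries thinned to the shallowest, and 1 to 3 in the leave-one-out fits; no setting called a member higher. The 4 falls in the other pathway and regulator lists became 8 under total counts, 0 when thinned and 1 to 3 with 1 library left out, and the 5 rises, 4 of them hepatocyte regulators, became 1 when thinned. Over all rows, 416 falls and 490 rises became 707 and 312 under total counts, 29 and 52 when thinned, and 215 to 362 and 236 to 400 with 1 library left out.

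The following estimates changed sign, and Masp1 was not tested when thinned. Under total counts the log2 fold change was -0.022 for C3, -0.018 for Cfb, -0.047 for F5, -0.053 for F2, -0.030 for Proc and -0.065 for F12, and when thinned it was -0.019 for Mbl1, -0.11 for Cfb, -0.078 for F5, 0.060 for F9, 0.0031 for Pros1 and 0.33 for Stab2. With 1 library left out it was -0.24 to 0.83 for Fga, -0.49 to 0.12 for Fgb, -0.54 to 0.15 for Fgg, -0.10 to 0.013 for F13b, -0.19 to 0.011 for Mbl2, -0.045 to 0.32 for C6, -0.19 to 0.14 for C8a, -0.25 to 0.021 for C8b, -0.011 to 0.087 for F5, -0.22 to 0.019 for F7, -0.12 to 0.010 for F9, -0.0059 to 0.035 for F12 and -0.061 to 0.015 for Vtn. Scaling by total counts used the same libraries and counts and moved the median of all tested rows from -0.0015 to -0.087. The other sign changes came with fewer libraries or counts, and their cause was not tested. The deviations of same-numbered libraries correlated at -0.03, -0.09 and 0.02, and those of differently numbered libraries at -0.08 to 0.11. With 3 libraries per group, these values cannot decide whether the replicate numbers pair the samples. With the replicate block 3 members were lower, C4b in place of F11, and the other lists had 3 lower and 5 higher. Thinning to the depth of vehicle library 1 was a single random draw, in which no member passed. In that draw the log2 fold changes were -0.42 for Cpb2, -0.39 for C8g and -0.93 for F11. What other draws would give was not tested.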
